A study of Mus musculus with 4 samples.

Results

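The nuclear genes for respiratory complexes II, III, IV and V and for cytochrome c were followed across 4 microarrays of mouse gastric corpus, the acid-secreting part of the stomach. The members were the succinate dehydrogenase genes Sdha, Sdhb, Sdhc and Sdhd, the genes Cyc1 and Cycs, and genes whose symbols start with Uqcr, Cox4, Cox5, Cox6, Cox7, Cox8 or with Atp5 followed by a lower-case letter. Pseudogenes were left out, and only probe sets assigned to a single gene were used, which left out Uqcr10 and Cox6c, whose probe sets carry a second gene each. This gave 47 of 22180 genes, with 4 in complex II, 8 in complex III, 1 for cytochrome c, 17 in complex IV and 17 in complex V. Of the 47, 40 had a mean over the arrays of at least 5.03 on the log2 scale, the middle value of all genes, and so did 11090 genes in all.

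The arrays came from adult mice of 8 to 10 weeks that received daily intraperitoneal injections for 14 days. KO metformin and KO vehicle were Atp4b-cre; Prkaa1fl/fl; Prkaa2fl/fl mice, which lose both catalytic subunits of AMPK, the AMP-activated protein kinase, where the Atp4b promoter is active, in parietal cells, and other cells of the corpus keep both genes. WT metformin and WT vehicle were C57BL/6 mice with neither Cre nor floxed alleles named. Metformin was given at 300 mg/kg and the vehicle was saline. The KO mice were of mixed background, from B6/FVB Cre mice crossed with B6 floxed mice, so genotype and strain cannot be told apart. Each group was 1 array, and the sources used here do not give the number of animals behind it. A difference between 2 arrays therefore comes without replication.

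The respiratory chain passes electrons from NADH and succinate to oxygen and stores the energy as a proton gradient, which complex V uses to make ATP. Complex II oxidises succinate, complex III hands the electrons to cytochrome c, and complex IV, cytochrome oxidase, reduces oxygen. All subunits of complex II are nuclear, whereas complexes III, IV and V combine nuclear subunits with a few made from mitochondrial DNA. Parietal cells pump acid with an ATP-driven proton pump and are crowded with mitochondria, metformin is known to act on complex I, and AMPK senses a fall in cellular energy.

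The values are log2 intensities after robust multi-array averaging. Over the genes past the filter the arrays correlated between 0.905 (KO vehicle with WT vehicle) and 0.971 (KO metformin with WT metformin). The defining parietal genes Atp4a and Atp4b lay between 12.80 and 13.44 on every array. Prkaa1 had log2 values of 8.66 on KO metformin, 8.18 on KO vehicle, 8.90 on WT metformin and 9.46 on WT vehicle, and Prkaa2 had 7.52, 7.19, 8.02 and 8.90 in that order. Both targeted genes were lower on each KO array than on the WT array of the same treatment. Whether their probes lie inside the floxed exons was not known. In RNA from whole tissue, fewer cells of a type and less RNA per cell cannot be told apart.

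Most respiratory genes followed a like profile over the 4 arrays, highest on KO vehicle, lowest on WT vehicle, and closer together on the metformin arrays of both genotypes. Among the 40 members past the filter, 26 had their highest value on KO vehicle (65% against 19.7% of all genes) and 27 had their lowest on WT vehicle (67.5% against 19.6%). Both held for 22 members (55%) and for 10.5% of all genes. Their median level on the log2 scale was 9.45 on KO metformin, 9.91 on KO vehicle, 9.77 on WT metformin and 9.19 on WT vehicle.

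**Figure D1:**
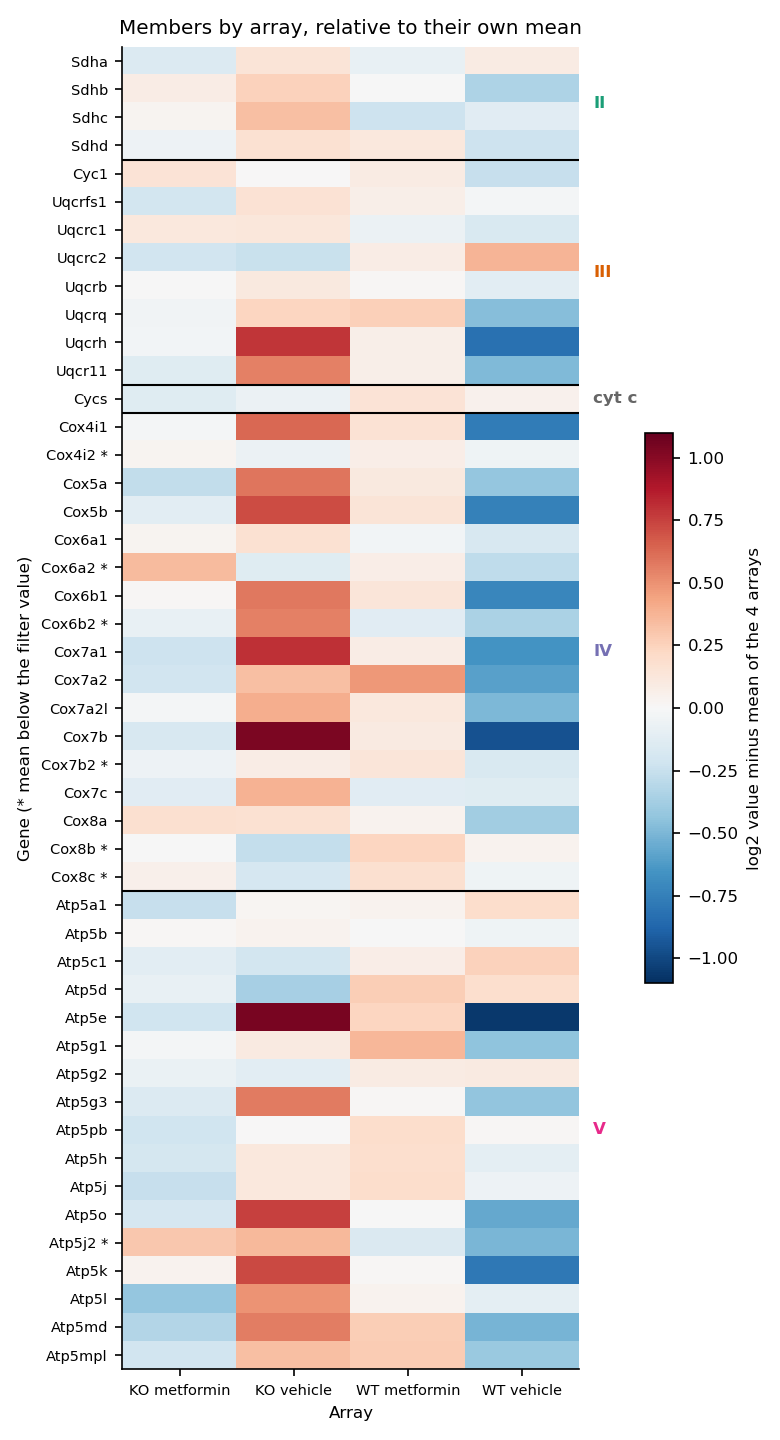
Each cell shows a gene's log2 value on an array (columns) minus its mean over the 4 arrays, for the 47 members (rows) grouped by complex; a star marks the 7 members below the filter. The KO vehicle column is the reddest and the WT vehicle column the bluest, above all in complex IV. All 11 complex IV members past the filter were lowest on WT vehicle, Cox7c by a narrow margin.

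Atp5e, the epsilon subunit in the central stalk of complex V, had the widest range of any member. Its log2 values were 8.20 on KO metformin, 9.46 on KO vehicle, 8.65 on WT metformin and 7.36 on WT vehicle. Cox7b, a small subunit of complex IV, followed with 9.88, 11.10, 10.16 and 9.11 on the same arrays. In both genes the vehicle arrays lay at the ends and the metformin arrays between them. At the other end stood Atp5b, the catalytic beta subunit of complex V, with 11.99 on KO metformin, 12.01 on KO vehicle, 11.98 on WT metformin and 11.94 on WT vehicle. Atp5b is thus nearly level across arrays on which its partner in the same enzyme spans 2.10 on the log2 scale.

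The sequences before the start sites of such contrasting pairs are shown to let the reader see what they share and where they differ. They are the 150 bases before the RefSeq start on GRCm38.p6, read 5′ to 3′ on the gene's strand, for the members of complexes III, IV and V with the widest and the narrowest range and for Sdha, the narrowest of complex II. The choice was made among members past the filter with 1 RefSeq promoter window. This leaves out Uqcrb, whose range of 0.22 is narrower than that of Uqcrc1 (0.29). Cox7b is the widest of complex IV by a probe set numbered among several chromosomes. Its other probe set, numbered on chromosome X, ran only from 4.57 to 5.58. Capitals mark matches, on either strand, to the motif of nuclear respiratory factor NRF1 (the bases GCGC repeated after 2 free bases), CCGGAAG (the ETS motif that GABP binds), GCCATNTT (YY1), TNAAGGTCA (estrogen-related receptors), TATAAA or CCAAT.
Uqcrh, chr4:116075071-116075220, minus strand: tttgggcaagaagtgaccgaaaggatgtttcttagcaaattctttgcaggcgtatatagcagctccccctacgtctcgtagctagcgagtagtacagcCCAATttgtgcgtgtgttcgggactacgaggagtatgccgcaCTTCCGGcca
Uqcrc1, chr9:108936498-108936647, plus strand: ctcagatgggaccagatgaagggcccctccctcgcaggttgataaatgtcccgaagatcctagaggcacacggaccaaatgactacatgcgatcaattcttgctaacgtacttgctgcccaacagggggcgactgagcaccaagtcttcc
Cox7b, chrX:106015550-106015699, plus strand: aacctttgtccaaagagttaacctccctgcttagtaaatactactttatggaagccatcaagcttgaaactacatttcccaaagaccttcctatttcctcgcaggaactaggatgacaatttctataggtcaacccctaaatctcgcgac
Cox6a1, chr5:115348959-115349108, minus strand: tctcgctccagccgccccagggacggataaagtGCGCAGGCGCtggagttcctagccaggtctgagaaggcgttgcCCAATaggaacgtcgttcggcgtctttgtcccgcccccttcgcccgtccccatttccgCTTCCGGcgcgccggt
Atp5e, chr2:174464102-174464251, minus strand: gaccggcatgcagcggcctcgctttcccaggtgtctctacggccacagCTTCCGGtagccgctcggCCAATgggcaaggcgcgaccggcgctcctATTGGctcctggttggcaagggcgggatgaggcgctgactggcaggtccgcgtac
Atp5b, chr10:128083157-128083306, plus strand: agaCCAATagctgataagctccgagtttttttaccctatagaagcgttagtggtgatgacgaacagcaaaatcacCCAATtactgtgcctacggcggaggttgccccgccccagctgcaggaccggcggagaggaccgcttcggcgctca
Sdha, chr13:74350241-74350390, minus strand: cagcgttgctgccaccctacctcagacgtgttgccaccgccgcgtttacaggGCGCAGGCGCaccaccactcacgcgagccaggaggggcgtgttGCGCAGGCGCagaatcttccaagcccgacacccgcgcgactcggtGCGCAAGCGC
The Sdha window holds 3 matches to the NRF1 motif, and Cox6a1 holds 1 beside an ETS match. Among wide-ranging genes, Atp5e and Uqcrh each hold an ETS match. Neither Cox7b, of wide range, nor Uqcrc1, of narrow range, holds a match to any of the 6 motifs in these 150 bases. In the longer windows described next, Cox7b holds YY1 and CCAAT matches and Uqcrc1 an NRF1 match.

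Promoter windows of 250 bases before to 50 after a start were at hand for 36 of the 47 members and for 17492 genes. The NRF1 motif was present in 10 member genes (27.8%) against 9.61% of all genes, and the ETS motif in 13 (36.1%) against 12.9%. The estrogen-related receptor motif was found in 2 members (5.56% against 1.20%), YY1 in 5 (13.9% against 7.46%), CCAAT in 20 (55.6% against 42.3%) and TATAAA in 4 (11.1% against 14.8%). Searches covered both strands, and no 2 of these motifs contain each other. Among members past the filter with a window, the median difference of KO vehicle from WT vehicle was 0.32 for the 10 with the NRF1 motif and 0.75 for the 22 without it. It was 0.60 for the 13 with the ETS motif and 0.52 for the 19 without. The NRF1 motif was in 1 of the 13 complex IV genes with a window and in 6 of 15 in complex V. In complex III it was in 1 of 4, and in complex II in 2 of 3. The complexes differ in the same median, so motif and complex were not separated, and a link with the motif was not tested.

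Between genotypes under vehicle, KO vehicle minus WT vehicle, the 40 members had a median of 0.54 on the log2 scale, beside -0.22 over all genes past the filter, and 37 of them lay above that all-gene median. At 2-fold or more, 13 members were higher on KO vehicle, where the background is 2.31% of genes, and none was lower (8.12% of genes). At 1.5-fold, 19 were higher (7.44% of genes) and 1 was lower (24.4% of genes). The median by complex was 1.02 in complex IV, 0.43 in complex II, 0.38 in complex V and 0.27 in complex III. After cyclic loess complex III stood at 0.51 and complex V at 0.46, and with arrays centred on their medians at 0.12 and 0.23, so the order of complexes III and V depends on scaling. Over all 47 members, with no filter, the median was 0.52, beside 0.03 over all 22180 genes. The all-gene median depends on scaling, at -0.07 after cyclic loess and -0.37 with arrays centred on their medians, so small differences are read relative to it; the members' median relative to all genes was 0.76 as deposited and 0.79 after cyclic loess.

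**Figure D2:**
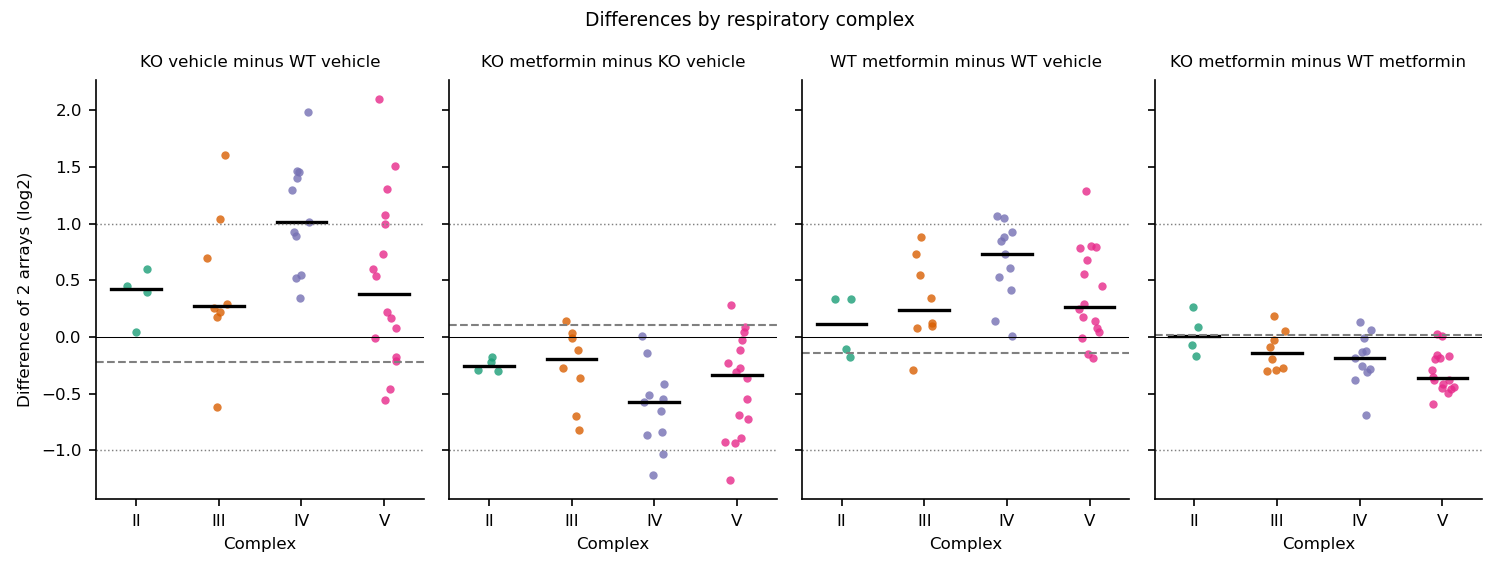
Points are members past the filter and give the log2 difference between 2 arrays (vertical axis) by complex, with 1 panel per comparison; the single cytochrome c gene is not drawn. Black bars are medians, the dashed line is the median of all genes past the filter, and dotted lines mark 2-fold; complex IV has the widest displacement in the first 3 panels, and no point passes 2-fold in the last.

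Complex II, the enzyme shared with the citric acid cycle, had no member past 2-fold in any comparison. Among all genes that share ran from 0.388% to 8.12% by comparison and direction. Under vehicle 1 of the 4 genes, Sdhb, was higher by 1.5-fold (7.44% of all genes). With 4 genes, such counts do not set complex II apart from all genes. Its flavoprotein Sdha, which oxidises succinate, had 10.48 on KO metformin, 10.77 on KO vehicle, 10.55 on WT metformin and 10.73 on WT vehicle. Sdhb, the iron-sulfur subunit, had 8.67, 8.84, 8.58 and 8.24, the widest range of the 4 genes at 0.60. The membrane anchors Sdhc and Sdhd ranged over 0.56 and 0.40. All 4 genes were highest on KO vehicle, while the lowest array was WT vehicle for Sdhb and Sdhd, WT metformin for Sdhc and KO metformin for Sdha.

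In complex III the subunits that carry the redox groups and the 2 core proteins moved less than some small accessory subunits. Cyc1, cytochrome c1, differed between KO vehicle and WT vehicle by 0.26, and the Rieske protein Uqcrfs1 by 0.18. Uqcrh, the hinge protein at the cytochrome c side, had 9.0 on KO metformin, 9.81 on KO vehicle, 9.09 on WT metformin and 8.21 on WT vehicle, a difference of 1.61 under vehicle, or 3.05-fold. Uqcr11, another small subunit, had 7.20, 7.90, 7.40 and 6.85, a difference of 1.04. Of the remaining small subunits Uqcrq differed by 0.70 and was highest on WT metformin, and Uqcrb, the brightest gene of complex III at a mean of 12.61, differed by 0.22. Uqcrc2, core protein 2, ran the other way with 9.82 on KO metformin, 9.78 on KO vehicle, 10.11 on WT metformin and 10.40 on WT vehicle. It was the 1 member lower by at least 1.5-fold on KO vehicle, at -0.62 (-0.40 after cyclic loess), whereas its partner core protein Uqcrc1 had 0.29.

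Cycs, the mobile cytochrome c that links complexes III and IV, had 10.98 on KO metformin, 11.05 on KO vehicle, 11.27 on WT metformin and 11.17 on WT vehicle. Its difference under vehicle was -0.11, and 0.05 after cyclic loess. Cycs is read by 5 single-gene probe sets, of which 2 have identical values, and the differences of these 5 under vehicle ran between -0.88 and 0.15.

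Complex IV was displaced furthest as a group. Of its 11 members past the filter, all were lowest on WT vehicle (19.6% of all genes) and 9 were highest on KO vehicle (19.7%). Cox7c was lowest there by a narrow margin, at 4.909 against 4.914 on KO metformin. Cox4i1, the ubiquitous form of subunit 4, had 10.50 on KO metformin, 11.15 on KO vehicle, 10.68 on WT metformin and 9.75 on WT vehicle. Cox6b1 had 10.05, 10.63, 10.18 and 9.33, and Cox5a had 8.99, 9.85, 9.36 and 8.84. Their differences of KO vehicle from WT vehicle were 1.40, 1.3 and 1.02, with KO vehicle highest and WT vehicle lowest in each. Cox5b, a subunit on the matrix side, had 9.95 on KO metformin, 10.78 on KO vehicle, 10.21 on WT metformin and 9.32 on WT vehicle. Cox7a2, the ubiquitous form of subunit 7a, had 9.36, 9.90, 10.04 and 8.98, and its highest array was WT metformin. The difference under vehicle was 1.99 for Cox7b (3.97-fold), 1.46 for Cox5b, 0.93 for Cox7a2 and 0.89 for Cox7a2l, the last a factor in assembling supercomplexes. Cox8a (0.55) and Cox6a1 (0.34) moved least apart from Cox7c. Cox7c had 4.91 on KO metformin, 5.43 on KO vehicle, 4.92 on WT metformin and 4.91 on WT vehicle, and passes the filter only through KO vehicle; without it the complex IV median was 1.16.

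The tissue isoforms of complex IV lay low, with 1 exception. Cox4i2 (lung form), Cox6a2 and Cox8b (heart and muscle forms) and Cox6b2, Cox7b2 and Cox8c (testis forms) all had means between 1.93 and 4.78, below the filter. Of these, Cox6b2 reached the filter value on 1 array, with 4.68 on KO metformin, 5.31 on KO vehicle, 4.64 on WT metformin and 4.41 on WT vehicle. Cox7a1, the heart and muscle form of subunit 7a, had 9.18 on KO metformin, 10.21 on KO vehicle, 9.48 on WT metformin and 8.75 on WT vehicle. It thus followed the profile of the ubiquitous subunits, at 1.46 under vehicle. None of 4 heart markers passed the filter, and 4 of 10 skeletal muscle markers did. Of 4 fat markers, Adipoq, Cidea and Ucp1 were below the filter on all 4 arrays. The remaining one, Fabp4, a fatty acid carrier of fat cells that endothelial cells also express, had 8.92 on KO metformin, 9.89 on KO vehicle, 9.21 on WT metformin and 8.60 on WT vehicle, the same order of arrays as Cox7a1. The median of 13 smooth muscle markers was 10.08 on KO metformin, 9.67 on KO vehicle, 10.43 on WT metformin and 10.20 on WT vehicle. This list was lowest where Cox7a1 was highest, with a median difference under vehicle of -0.65 beside -0.22 over all genes. The part of muscle or fat in the result was not tested.

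In complex V each part of the enzyme held genes of wide and of narrow range. The catalytic head genes Atp5a1 and Atp5b differed between KO vehicle and WT vehicle by -0.17 and 0.08, and the central stalk genes Atp5c1 (gamma) and Atp5d (delta) by -0.46 and -0.55. With Atp5e these F1 genes had a median of -0.17 over 5 (-0.02 after cyclic loess). The Atp5b difference turned to -0.07 with arrays centred on their medians. The membrane-embedded Fo genes had a median of 0.74 over 7, and the peripheral stalk genes 0.20 over 4, but each part spans values that overlap with the others, and these medians were not tested against each other. In the Fo part, Atp5k (subunit e) had 9.10 on KO metformin, 9.79 on KO vehicle, 9.08 on WT metformin and 8.28 on WT vehicle. Atp5md had 11.14, 12.03, 11.73 and 10.94 on the same arrays. Both were highest on KO vehicle and lowest on WT vehicle. Atp5l (subunit g) and the small proteolipid gene Atp5mpl differed by 0.60 and 0.74. The c ring genes encode the same mature ring protein. Atp5g3 had 8.86 on KO metformin, 9.58 on KO vehicle, 9.02 on WT metformin and 8.57 on WT vehicle. The 3 genes did not move together, with differences under vehicle of 1.0 for Atp5g3, 0.54 for Atp5g1 and -0.21 for Atp5g2. Among stalk genes, Atp5o (OSCP) had 5.98 on KO metformin, 6.92 on KO vehicle, 6.16 on WT metformin and 5.60 on WT vehicle, a difference of 1.31, while Atp5pb (subunit b), Atp5h (subunit d) and Atp5j (F6) had -0.01, 0.22 and 0.17. Atp5j2 (subunit f), at a mean of 4.37, was below the filter.

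For the effect of metformin in KO mice, KO metformin minus KO vehicle, the members had a median of -0.34 beside 0.11 over all genes, and 38 of 40 lay below the all-gene median. At 2-fold or more 3 members were lower (0.613% of genes): Atp5e at -1.26, Cox7b at -1.22 and Cox7a1 at -1.03. None was higher (2.44% of genes). At 1.5-fold 13 were lower (3.72% of genes) and none was higher (12.4% of genes). Complex IV had the lowest median, -0.57, followed by -0.34 in complex V, -0.26 in complex II and -0.19 in complex III.

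In WT mice the same treatment, WT metformin minus WT vehicle, gave values of the other sign. The members had a median of 0.34 beside -0.14 over all genes, and 36 of 40 lay above the all-gene median. At 2-fold or more 3 members were higher (0.775% of genes): Atp5e at 1.29, Cox7a2 at 1.07 and Cox7b at 1.06. None was lower (0.929% of genes). At 1.5-fold 14 were higher (3.57% of genes) and none was lower (9.06% of genes). The medians were 0.73 in complex IV, 0.27 in complex V, 0.24 in complex III and 0.12 in complex II. The metformin responses of KO and WT mice rest on separate pairs of arrays, and in 31 of 40 members (77.5% against 19.4% of all genes) the KO response was negative and the WT response positive. That difference of responses was not tested, since each arm is 1 array.

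**Figure D3:**
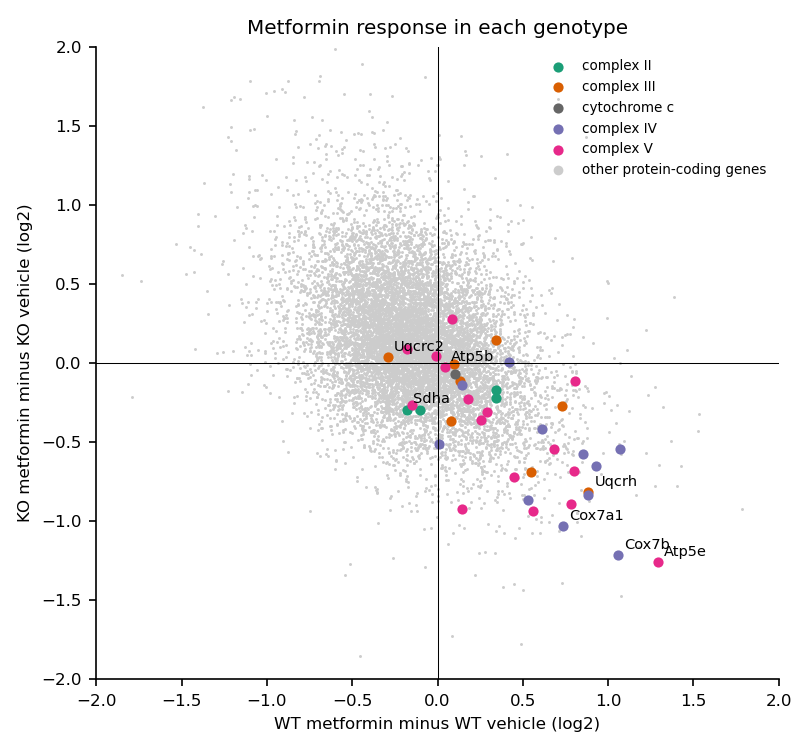
Each point is a gene past the filter, with the WT response to metformin on the horizontal axis and the KO response on the vertical axis (log2); members are coloured by complex and other protein-coding genes are grey. Points beyond 2 on either axis are not drawn; most members lie in the lower right, with Atp5e and Cox7b farthest out, while Uqcrc2 and Atp5b lie near the origin.

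Under metformin the genotypes were close. For KO metformin minus WT metformin the median of the members was -0.19 beside 0.02 over all genes, and 33 of 40 lay below the all-gene median. None passed 2-fold in either direction (0.532% of genes higher, 0.388% lower). At 1.5-fold 2 were lower (2.67% of genes), Cox7a2 at -0.69 and Atp5md at -0.59, and none was higher (3.11% of genes). Complex V had the lowest median, -0.36, and complex II stood at 0.01. These 4 comparisons share arrays in pairs, so a high KO vehicle or a low WT vehicle value enters 2 of them.

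Some marker lists of cell types, not all of them types of the corpus glands, moved between the arrays. Others had nearly level medians. The median of 20 parietal markers was 9.38 on KO metformin, 9.05 on KO vehicle, 9.12 on WT metformin and 9.57 on WT vehicle. This list was thus lowest on the array where most respiratory genes were highest, and so were 44.3% of all genes past the filter. Under vehicle its median difference was -0.40 beside -0.22 over all genes, and -0.16 beside -0.07 after cyclic loess. The median of 10 squamous markers was 6.94 on KO metformin, 4.70 on KO vehicle, 4.59 on WT metformin and 3.94 on WT vehicle, and 6 of the 10 passed the filter. The median of 6 mucous neck markers was 9.46, 8.85, 8.63 and 9.13 in the same order. Lists with medians nearer level were 6 chief cell markers, at 8.19, 8.19, 7.97 and 7.90, and 4 pit cell markers, at 13.37, 13.31, 13.47 and 13.29. Of the chief markers, Lipf and Cpb1 were below the filter on all 4 arrays. Pgc, Gkn1, Gkn2 and Tff1, with means from 13.21 to 14.00, sat near the top of the scale. Between these ends, the difference under vehicle was -0.73 for Muc5ac, 0.51 for Bhlha15, -0.23 for Cblif and 0.06 for Pga5. The part of any of these cell types in the respiratory values was not tested.

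A linear model over all 4 arrays (limma, with genotype and treatment as terms and 1 residual degree of freedom) gave the only test the design allows. For KO minus WT, averaged over treatments, 0 of 40 members passed an adjusted p of 0.05 (0.0451% of genes did), and 0 had an unadjusted p under 0.05, beside 374 of 11090 genes. For metformin minus vehicle, averaged over genotypes, 0 members passed (0% of genes), and 0 had an unadjusted p under 0.05, beside 32 genes. The lowest adjusted p of any member was 0.9995 for genotype and 1 for treatment. In this model, responses of opposite sign in the 2 genotypes enter the residual.

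Gene length moved with these differences. Span, from the first to the last base of the gene in RefSeq, had a median of 6.92 kb over the 40 members and 24.8 kb over 10550 protein-coding genes past the filter, and 30 members (75%) were shorter than 10 kb against 23.6% of protein-coding genes. Across the 40 members, Spearman's rho between span and difference was -0.37 for KO vehicle minus WT vehicle and -0.39 for WT metformin minus WT vehicle; across protein-coding genes it was -0.26 and -0.30. Genes on the same arrays are not independent replicates. Members under 10 kb had a median of 0.57 in the vehicle comparison and 0.43 in the WT response, the 10 longer members had 0.37 and 0.14, and protein-coding genes under 10 kb had 0.01 and 0.04. After cyclic loess normalisation alone, the members' median was 0.72 in the vehicle comparison, 0.47 in the WT response and -0.44 in the KO response. With the trend on span removed after cyclic loess, these were 0.60, 0.34 and -0.46.

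Small nucleolar RNAs, short noncoding transcripts, ran in the members' direction. Over 59 past the filter their median difference was 1.13 under vehicle, -0.56 in the KO response, 1.13 in the WT response and -0.39 under metformin, beside 1.02, -0.57, 0.73 and -0.18 in complex IV. The part of RNA preparation or transcript size in the members' values was not tested.

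**Figure D4:**
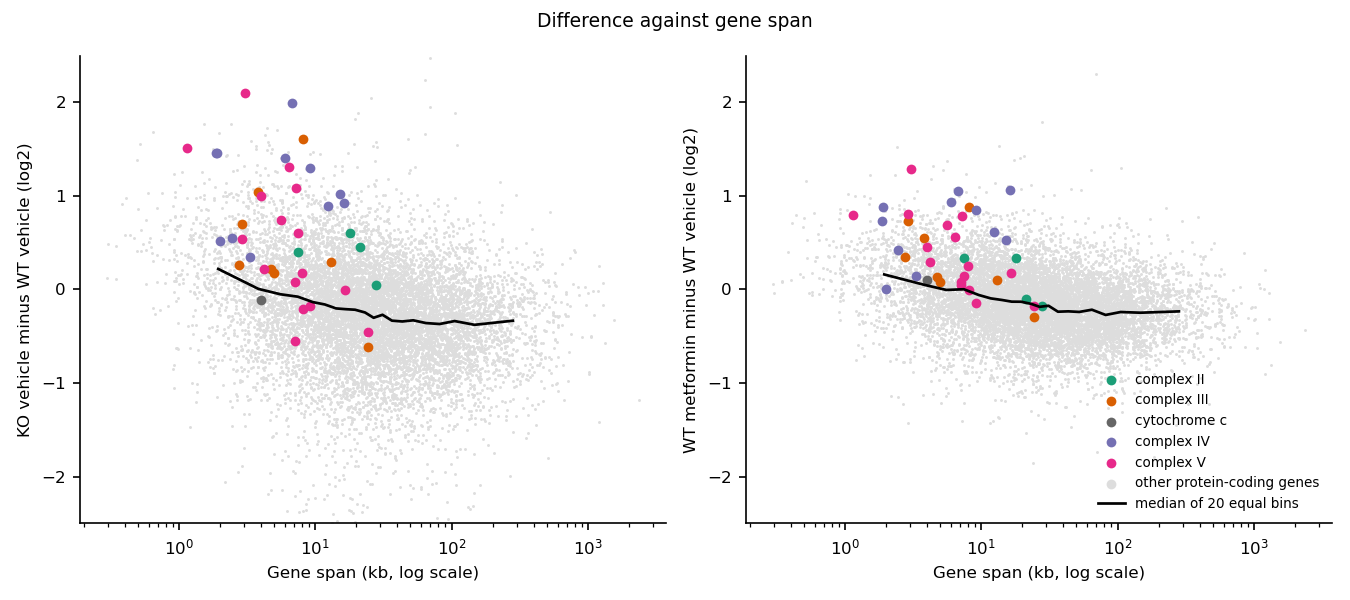
Gene span (horizontal, log scale, kb) is set against KO vehicle minus WT vehicle (left) and WT metformin minus WT vehicle (right), both log2. Grey points are other protein-coding genes, the black line is their median in 20 bins of equal size, and coloured points are members; points beyond 2.5 are not drawn, and most members, long or short, lie above the line.

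Some members rest on probe sets whose place in the genome is doubtful. The sources used here give no probe set positions, but probe set numbers mostly run along chromosomes, and 41 of the 47 chosen probe sets are numbered among probe sets of the gene's own chromosome. Those of Cox5b, Atp5h, Atp5g2 and Cycs are numbered among those of another chromosome, and those of Cox7b and Uqcrb among several. For Cox5b that chromosome is 13, where RefSeq lists the pseudogene Cox5b-ps, and for Cycs it is 5, where RefSeq lists Cycs-ps2. The other Cox7b probe set, numbered on chromosome X, had 5.49 on KO metformin, 5.58 on KO vehicle, 4.61 on WT metformin and 4.57 on WT vehicle. It differed by 1.01 under vehicle but by -0.09 in the KO response and 0.05 in the WT response, so the metformin responses of Cox7b depend on the probe set. The other Cox5b probe set averaged 4.0, below the filter, and differed by 0.58 under vehicle. For Atp5h the sign under vehicle turned, with -0.88 on the other probe set against 0.22. The brightest Cycs probe set numbered on its own chromosome had 8.52 on KO metformin, 8.39 on KO vehicle, 9.09 on WT metformin and 9.26 on WT vehicle, also -0.88 under vehicle against -0.11. For Atp5g2 the same difference was -0.20 against -0.21. The other probe set of Atp5e lies with its own chromosome, as does the first, and had 7.33 on KO metformin, 8.02 on KO vehicle, 7.29 on WT metformin and 6.8 on WT vehicle, with the same ends. Own-chromosome probe sets alone were an alternative chosen after seeing the data. With them 38 members passed the filter. The complex IV median was then 0.97 under vehicle, -0.53 in the KO response and 0.57 in the WT response. These 38 include the chromosome X probe set of Cox7b, which passed only through the KO arrays. Both its WT values were below 5.03, so its difference of 1.01 was favoured by the filter.

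Related genes were read beside the members. The members' medians were -0.34 in the KO response, 0.34 in the WT response, 0.54 under vehicle and -0.19 under metformin. In the same order the complex I list (31 of 33 past the filter) had -0.32, 0.34, 0.55 and -0.19. This list was drawn by Nduf symbols alone and includes Ndufa4 and Ndufa4l2, so not every gene in it need encode a complex I subunit. The mitochondrially encoded subunits had medians of -0.02, 0.09, 0.12 and -0.00 over 10 genes, and the vehicle value turned to -0.03 with arrays centred on their medians. Most of them sit near the top of the scale: the cytochrome oxidase gene COX1 had 13.66 on KO metformin, 13.59 on KO vehicle, 13.62 on WT metformin and 13.55 on WT vehicle. ND6, the complex I gene encoded on the other strand from these, had 10.71, 11.54, 11.15 and 9.98, the profile of the nuclear members.

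The citric acid cycle, which feeds the chain from the same matrix, did not share that profile. Its 11 genes had a median of -0.53 under vehicle, 0.22 in the KO response and -0.22 in the WT response. Over all genes past the filter these medians were -0.22, 0.11 and -0.14. After cyclic loess the 11 genes had -0.28, 0.06 and -0.15, beside -0.07, 0.03 and -0.06 over all genes. As deposited, 7 of the 11 lay below the all-gene median under vehicle, 6 above it in the KO response and 8 below it in the WT response. Citrate synthase, Cs, had 10.00 on KO metformin, 9.32 on KO vehicle, 10.01 on WT metformin and 10.40 on WT vehicle. It was lowest on the array where most respiratory genes were highest. Suclg1, a subunit of succinyl-CoA ligase, differed from Cs, with 8.15, 8.68, 8.28 and 7.82.

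Assembly factors were mixed. Over 34 past the filter the medians were 0.17 under vehicle, -0.13 in the KO response and 0.17 in the WT response, and under vehicle 26 of the 34 lay above the all-gene median. The vehicle value was 0.39 after cyclic loess and 0.02 with arrays centred on their medians. Cox17, the copper chaperone of complex IV, had 8.01 on KO metformin, 9.08 on KO vehicle, 8.46 on WT metformin and 7.75 on WT vehicle, a difference of 1.33 under vehicle. Cox15, which acts in making the haem a of the same enzyme, had 7.44, 6.77, 7.28 and 8.26, a difference of -1.5. Uqcc3, for complex III, differed by 1.23, and Fmc1, for complex V, by 1.55. Fmc1 had 4.84 on KO metformin, 6.26 on KO vehicle, 5.10 on WT metformin and 4.71 on WT vehicle. It passes the filter only through KO vehicle, the array that makes this difference. Surf1, another complex IV factor, differed by -0.44.

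**Figure D5:**
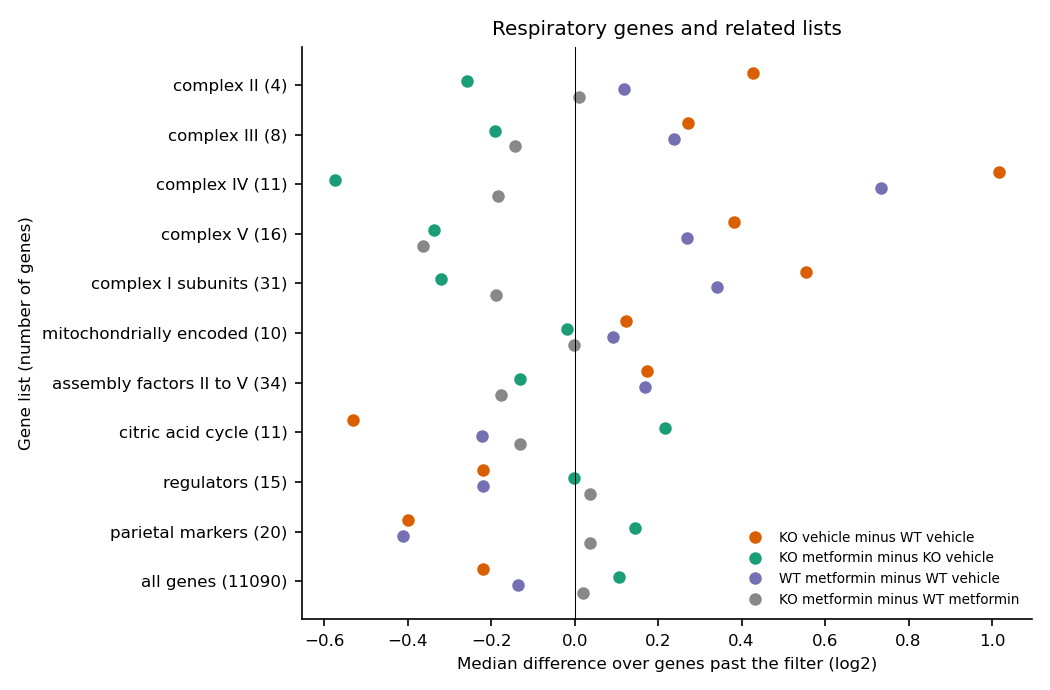
Points are the median log2 difference of each gene list (rows, with the number of genes past the filter) in the 4 comparisons (colours); zero is the vertical line. Complex IV lies farthest from zero in the first 3 comparisons, and the complex I list, drawn by symbol, lies near complexes II, III and V. The citric acid cycle lies on the opposite side of zero in the first 3 comparisons, as does the median of all genes. In the last comparison the citric acid cycle lies on the same side (-0.13).

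The regulators of mitochondrial genes had a median of -0.22 under vehicle over 15, equal to that of all genes. Ppargc1a, a coactivator of mitochondrial biogenesis, had 7.82 on KO metformin, 7.81 on KO vehicle, 8.10 on WT metformin and 8.61 on WT vehicle. Esrra, a nuclear receptor that works with it, had 7.45, 7.61, 7.41 and 6.74, lowest on WT vehicle like the members. Nrf1 had 5.99, 5.55, 5.70 and 5.87, and Gabpa had 7.45, 7.62, 7.58 and 7.84, and neither followed the members.

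The genes whose centred profile over the 4 arrays lay nearest to the median profile of the members were St8sia5, Mrps25, Apol9a, Aven and Bcas2, at summed absolute distances of 0.0886 to 0.101 on the log2 scale. Mrps25, a protein of the mitochondrial ribosome, had 6.85 on KO metformin, 7.21 on KO vehicle, 7.02 on WT metformin and 6.67 on WT vehicle. With 4 arrays, likeness of profile is a description.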

How the data were processed

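The files hold 1 deposited table of log2 expression values from 4 arrays, labelled as cDNA with an Affymetrix kit (WT Plus) according to the labels. Per the submitters' processing notes, the authors used Partek and RMA; the sources used here give no versions, settings, annotation build or background levels. Values from 0.77 to 14.02 show the log2 scale.

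Of 41345 probe sets, the platform annotation gave 23521 one gene, 1814 several and 16010 none; 23328 of the 23521 matched RefSeq GRCm38.p6, which gave current symbols, spans and promoters. The probe set with the highest mean stood for a gene. Differences are of log2 values between 2 arrays with no p-value, counted at 1 (2-fold) and 0.585 (1.5-fold). Genes below 5.03 were left out of counts. The model was limma 3.58.1 in R 4.3.3 (lmFit, eBayes, Benjamini-Hochberg), tested on simulated data. There it recovered 27.5% of genotype changes of 1 on the log2 scale and 99.8% of changes of 2. The simulation held no responses of opposite sign in the 2 genotypes, unlike these arrays. Other steps used Python 3.11.15 with statsmodels 0.14.6, scipy 1.17.1, pandas 2.3.3 and numpy 2.4.6. Fit samples were all 4 arrays. Precision is limited by the number of arrays.

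The members and gene lists were chosen with earlier results of these data known. Named genes are all members, with values per array for those past 2-fold in any comparison, the extremes of each complex, tissue isoforms and genes whose probe sets differ; the 5 nearest profiles; and genes from the lists, chosen within each list after their values were seen. Mitochondrial genes were found under the platform's names, which lack the mt- prefix. Alternatives were cyclic loess, arrays centred on their medians, no filter, a 75th percentile filter, the mean of probe sets, protein-coding genes alone, removal of the trend on span (lowess, span 0.3), and limma with a trend or robust variance. A further pair was added after seeing the data: own-chromosome probe sets and leaving out Cox7c. Protein sequences were not used here.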

Additional observations from a re-analysis of the deposited data

Results flagged for a closer look

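The metformin response had opposite signs in the 2 genotypes for the members as a group, for each complex and for the 2 members with the widest range. The KO response minus the WT response was -0.68 for the median of the 40 members past the filter (KO -0.34, WT 0.34). By complex it was -0.38 in complex II, -0.43 in complex III, -1.31 in complex IV and -0.61 in complex V. For single genes it was -2.27 for Cox7b (KO -1.22, WT 1.06) and -2.55 for Atp5e (KO -1.26, WT 1.29). The chosen Cox7b probe set is numbered among several chromosomes, and the one numbered on chromosome X had -0.09 in KO and 0.05 in WT. The other Atp5e probe set had -0.69 in KO and 0.49 in WT. These are differences of log2 values between single arrays, and none of them was tested.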

How the results depend on the processing

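Medians were compared between settings by whether they moved by less than the SD over the set's members, counts by a factor of 1.5. Of the medians, 324 kept their value by this rule, 9 moved and 3 turned sign. Of the counts, 140 kept theirs and 12 moved. Some of the kept results could not move. Centring arrays leaves the medians relative to all genes unchanged. All members are protein-coding, so using protein-coding genes alone leaves the members' own medians and counts unchanged. The SD is wide in complexes III and V, so a median there can count as kept while moving by over 1.5 times, as complex III did under vehicle (0.51 with cyclic loess, 0.12 with arrays centred, 0.27 as deposited). The all-gene median under vehicle was -0.22 as deposited.

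With cyclic loess, the complex II median was -0.40 in the KO response (-0.43 relative to all genes) and 0.66 under vehicle, 7 members were lower at 2-fold in the KO response, 0 at 1.5-fold under vehicle and 1 at 1.5-fold under metformin. With arrays centred on their medians, 1 member was higher at 2-fold in the WT response, 3 were lower at 1.5-fold under vehicle, and the complex II median was -0.17 in the KO response. With the mean of probe sets, 1 member was higher at 2-fold in the WT response and 1 lower in the KO response, against 3 and 3. With the trend on span removed after cyclic loess, which changes both choices at once, the complex II median was -0.42 in the KO response and 0.69 under vehicle, with 5 members lower at 2-fold in the KO response, 0 lower at 1.5-fold under vehicle and 1 under metformin. With own-chromosome probe sets, 3 were lower at 1.5-fold under vehicle and 1 higher at 1.5-fold under metformin. The latter was Cox7b, at 0.88, on a probe set that passed the filter only through the KO arrays.

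With no filter, medians relative to all genes were 0.42 for complex IV in the WT response, and for complex II -0.24 in the KO response and 0.40 under vehicle. Under metformin the complex II median relative to all genes, -0.01, turned to 0.0022 with cyclic loess, 0.0051 with the span trend removed after it and 0.0117 with no filter. Without the filter the tissue isoforms enter complex IV; other causes were not tested. In limma with no filter, 1 member had an unadjusted p under 0.05 for genotype.

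No paired analysis was possible because each group is 1 array, and for the same reason no replicate was left out. A trend on protein length was not run. The sources used here give no signal over background, so differences of genes near or below 5.03 have no known floor.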
